A study of Xenopus laevis with 6 samples.

Results

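Basal Xenobots were described on their own, by the genes that took the largest shares of their sequencing reads. A basal Xenobot is a motile body that forms from ectoderm of the frog Xenopus laevis without sculpting or mixing of tissues. Each of the 3 Xenobot pools held 50 wild type, untreated Xenobots, cut as animal cap ectoderm at stage 9, healed in 0.75X MMR (a Ringer's salt solution) at 14 °C and taken on day 7. The 3 embryo pools, 10 stage 35 embryos each in 0.1X MMR at the same temperature, make up the other samples of the series and were not used here. Total RNA depleted of ribosomal RNA was sequenced, and the value per gene was an estimated read count. After 11 loci in and around a ribosomal RNA array (LOC121401713 to LOC121401723) were set aside, counts were scaled to CPM (each count divided by the total of its pool and multiplied by 1000000), genes were ranked by mean CPM over the 3 Xenobot pools, and the 500 highest of 42627 genes were described.

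CPM gives a gene's share of the reads. It is not divided by transcript length, so a long transcript draws more reads than a short one at the same number of molecules, and the ranks below are ranks of reads. The genes were chosen by these same CPM values, so their levels are a description. A pool mixes many individuals and cell types, and more cells of a type and more RNA per cell cannot be told apart. The methods describe replicates in general as samples from independent batches, the labels do not say which batch or clutch each pool came from, and SDs over n = 3 pools measure the spread between these pools.

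The embryonic skin of Xenopus is a mucociliary epithelium. Its outer layer holds goblet cells that secrete mucus, multiciliated cells that beat and move fluid, ionocytes that pump ions, and small secretory cells, above basal progenitor cells that rest on a basement membrane. Keratins form the intermediate filaments of these cells and desmosomes anchor them between neighbours. Xenopus laevis is an allotetraploid: it carries an L and an S set of chromosomes from a past hybridization, and many genes are kept as a pair of copies, called homeologs, named with the endings .L and .S.

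The libraries held 15599300, 20325075 and 13597538 estimated counts in pools 1, 2 and 3. The dropped loci took 36.1, 26.3 and 36.8% of them, which left 9975202, 14970009 and 8595113 counts. Of the 11 loci, 10 are annotated as rRNA, and LOC121401719, an immunoglobulin segment, had 0 counts. At least part of a count was found for 30161 to 31181 genes per pool, and 22209 genes averaged at least 1 CPM. No gene of the top 500 had fewer than 1203 counts in any pool, for which counting error alone is 2.88%.

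The reads were concentrated in few genes. The first gene held 1.29% of the counts, the first 10 held 7.73%, the first 25 held 13.4%, the first 100 held 23.1% and the first 500 held 37.7% ± 1.40 (SD, n = 3 pools). By pool, the share of the top 500 was 36.5, 37.5 and 39.3%, with 95% Wilson intervals of at most 0.0326 points to either side, which cover counting error only. At the other end, 1189 genes were needed for 50% of the counts and 9269 for 90%. The last members and the first genes outside were nearly equal: pdia5.L at 243.1 CPM and naca.S at 243.0 CPM were inside, purb.L at 242.6 CPM and tubb4b.S at 242.5 CPM outside. Of the 500 genes, 472, 460 and 450 were also in the own top 500 of pools 1, 2 and 3, and 402 were in all of these. The boundary was therefore soft.

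**Figure D1:**
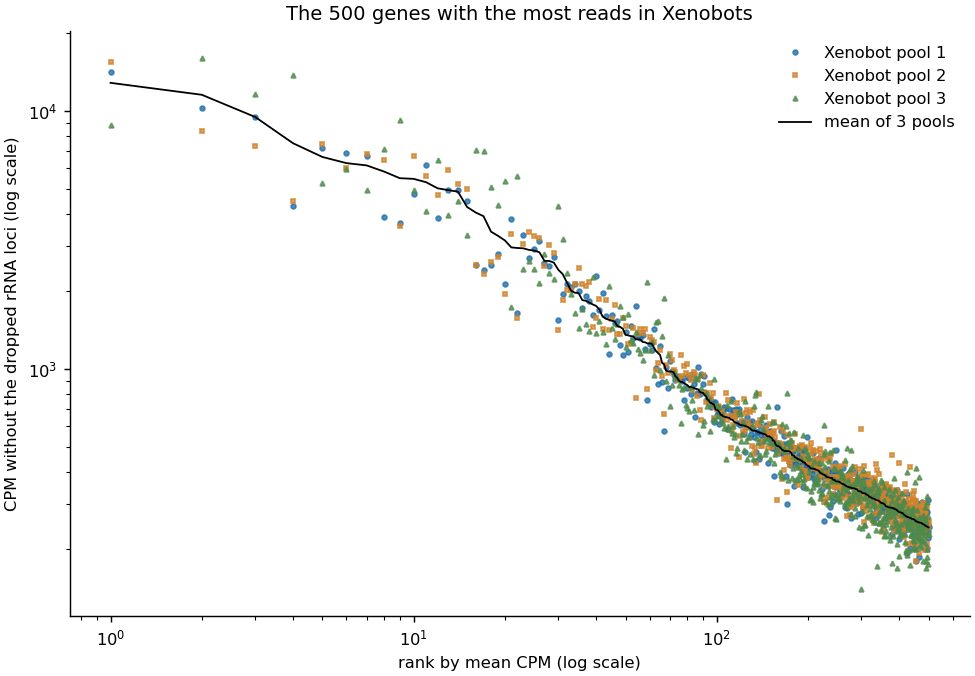
CPM of the 500 genes in each Xenobot pool (points) and their mean (line), by rank of the mean; both axes are logarithmic. The mean is 12862 CPM at rank 1 and 243.0 CPM at rank 500, and pool 3 departs most from the line among the upper ranks.

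The top 25 genes mixed 12 loci known only by a number with keratins, secreted products of skin and housekeeping genes. The gene with the most reads was nemf.L, which encodes a factor of ribosome-associated quality control (chromosome 8L, 84000154 to 84033526 in the NCBI version 10.1 assembly). It stood at 14223, 15551 and 8813 CPM in pools 1, 2 and 3, a mean of 12862 ± 3569 CPM. A count per gene from total RNA does not show which part of the locus the reads came from. Whether these reads are mRNA of nemf was not tested. The second, LOC121402969, is a long non-coding RNA on chromosome 4L, at 10271, 8336 and 16081 CPM. The third, ccdc50.L_1, is a counted feature for which the annotation used here has no entry, at 9502, 7296 and 11652 CPM. The annotated gene ccdc50.L had only 35, 61 and 28 counts. These 3 features were high in every pool but not in parallel: nemf.L was lowest in pool 3, and the other two were highest there.

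**Figure D2:**
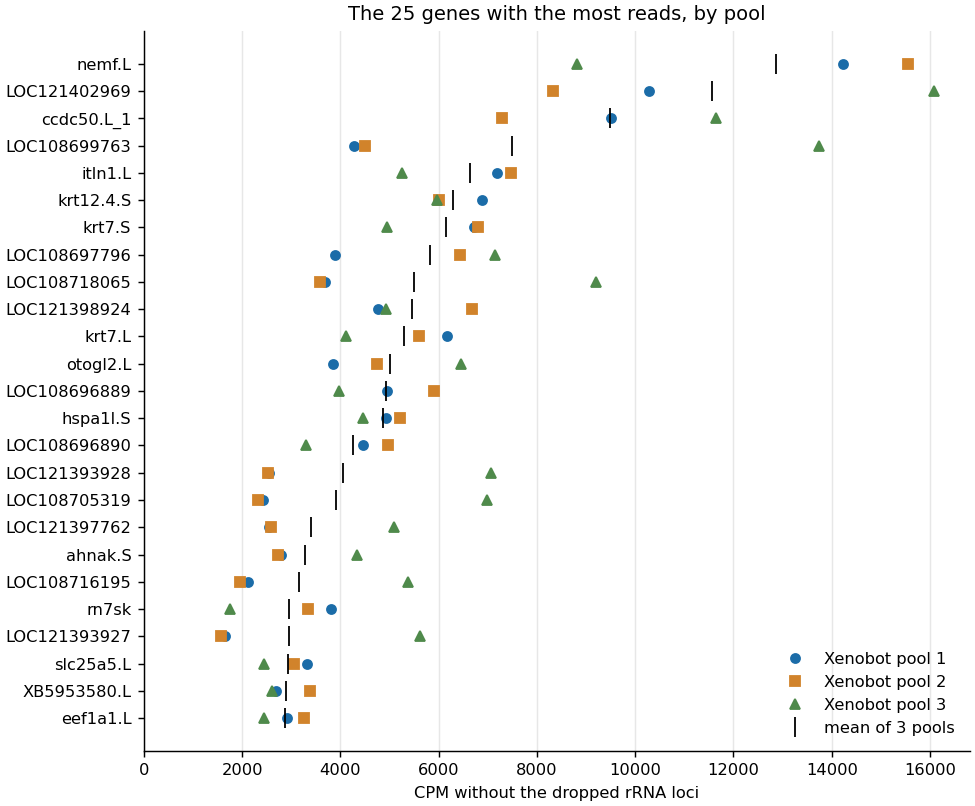
CPM of the 25 highest genes in each Xenobot pool (circle, pool 1; square, pool 2; triangle, pool 3), with a bar at the mean. Genes such as krt12.4.S lie close together in the 3 pools, while LOC108699763 stood at 13741 CPM in pool 3 against 4272 and 4493 CPM in pools 1 and 2.

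Products of the skin surface were prominent. The lectin gene itln1.L (chromosome 7L, 33159225 to 33176176), whose protein is secreted by goblet cells of the Xenopus larval skin and binds microbial sugars, stood at rank 5 with 7197, 7465 and 5247 CPM. The gene otogl2.L, of the otogelin-like family of mucin-related secreted proteins, had 3854, 4739 and 6456 CPM. The lowest pool of itln1.L was thus the highest of otogl2.L. With fucolectin.S at 454 ± 95.2 CPM and b3gnt7.L, a sugar transferase, at 342 ± 18.7 CPM, 4 genes of the goblet and small secretory class held 1.24% ± 0.0632 of the counts. Of 52 genes that the patterns of this class matched at 1 CPM or more, 2 reached the top 500, and otogl2.L and fucolectin.S were added by hand.

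Keratins made up 2.19% ± 0.278 of the counts through 8 genes, although 40 keratin and intermediate filament genes averaged at least 1 CPM. The leaders were krt12.4.S with 6882, 6003 and 5960 CPM, krt7.S with 6709, 6806 and 4947 CPM and krt7.L with 6174, 5608 and 4103 CPM. They were followed by krt12.4.L at 1596 ± 327 CPM and krt12.5.S at 1302 ± 94.7 CPM. The 8 genes held nearly all reads of the class, since its members at any level reached 2.30% together. By pool the class took 2.42, 2.27 and 1.88%, lowest in pool 3.

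Genes of cell junctions and adhesion numbered 22 and took 1.09% ± 0.114. The desmosomal linker dsp.L stood at 1139, 1413 and 2100 CPM, the desmosomal cadherin dsg2.L at 802, 694 and 947 CPM, and E-cadherin, cdh1.S, at 809, 741 and 807 CPM. Periplakin, ppl.L, had 727 ± 162 CPM, and the tight junction gene cldn4.L had 663 ± 23.6 CPM. Pool 3 was the highest for 13 of the 22 genes, and for 151 of the whole top 500. It was also the highest for 13 of 17 genes of large scaffold and linker proteins, all placed in that class by hand, with 1.02% ± 0.204 of the counts and led by ahnak.S at 2785, 2722 and 4330 CPM. Others in it were ahnak.L at 1455 ± 271 CPM, syne1.L, a giant nuclear envelope linker, at 575 ± 211 CPM, eppk1.S (epiplakin) at 548 ± 152 CPM, and dync1h1.L, the heavy chain of cytoplasmic dynein, at 479 ± 52.9 CPM.

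The class of tubulins, axoneme and cilia took a moderate share. Tubulins are not limited to cilia, and the ciliary part of the share was not separated. The 13 genes of tubulins, axoneme and cilia held 0.535% ± 0.0538, out of 412 genes of the class at 1 CPM or more that held 1.65% together. The tubulins tubb4b.L (920, 948 and 689 CPM) and tubb4a.S (941, 817 and 626 CPM) came first. The axonemal dynein heavy chain dnah9.S, part of the outer arms that drive ciliary beating, had 572, 524 and 586 CPM, and dnah7.L, of the inner arms, 389, 379 and 431 CPM. The tubulins were lowest in pool 3, where the dynein heavy chains named here were highest.

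Ion pumps, channels and acid-base genes numbered 17 and held 0.595% ± 0.0178, a share that varied little between pools (0.608, 0.602 and 0.575%). They were led by atp2a3.L, a calcium pump of the endoplasmic reticulum, at 939 ± 35.7 CPM. The proton and potassium pump atp12a.L followed at 506 ± 19.8 CPM, then the Na,K-ATPase subunit atp1b2.L at 446 ± 52.2 CPM, the calcium pump atp2a2.S at 380 ± 27.9 CPM and atp13a2.L at 347 ± 69.7 CPM. Ionocyte markers lay lower: atp6v1b1.L, a proton pump subunit, stood at 210, 184 and 159 CPM, and none of 22 ionocyte markers reached the top 500.

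Genes of protein synthesis formed the most numerous named class. Cytosolic ribosomal proteins gave 51 members, 28 of the large and 23 of the small subunit, with 1.82% ± 0.306 of the counts. A total of 138 such genes averaged at least 1 CPM and held 3.03%. Each member was modest, between 245 and 865 CPM, and rpl3.L was the first at 841, 1046 and 709 CPM. It was followed by rpsa.S at 651 ± 184 CPM, rpl4.L at 606 ± 71.1 CPM, rplp0.L at 577 ± 123 CPM and rpl7a.L at 544 ± 85.9 CPM. Of the 51, 47 were highest in pool 2, where 221 of the whole top 500 were. In pool 3, 50 of the 51 were lower than in both others. How many of the whole top 500 were lowest in pool 3 was not counted. The shares of the keratin, chaperone, metabolic and respiratory chain classes were also lowest there, so the 50 are not read as a trait of this class. Ribosomal protein mRNAs are short, so CPM places them lower than a scale per length would.

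Translation factors held 1.45% ± 0.166 through 17 genes. The elongation factors eef1a1.L (2921, 3266 and 2449 CPM) and eef2.1.L (2509, 3013 and 2348 CPM), which deliver tRNAs and translocate the ribosome, were the highest. Their homeologs eef1a1.S and eef2.1.S had 1808 ± 387 and 1356 ± 132 CPM, and the poly(A)-binding protein gene pabpc1.S had 1301 ± 139 CPM. RNA binding and splicing genes numbered 34, of which 12 were placed by hand, and held 1.68% ± 0.0341, one of the steadiest classes. The cold-inducible cirbp.L stood at 1622, 1560 and 1441 CPM, hdlbp.L (vigilin) at 1255 ± 75.2 CPM, ybx1.S, an mRNA packaging protein, at 986 ± 74.0 CPM and ncl.L (nucleolin) at 836 ± 68.7 CPM.

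Chaperones gave 15 genes and 1.33% ± 0.124. Of these, hspa1l.S, an Hsp70 family gene, was by far the first at 4928, 5219 and 4460 CPM, followed by hspa8.L, the constitutive Hsc70, at 1976 ± 287 CPM and hsp90ab1.S at 1466 ± 86.2 CPM. The endoplasmic reticulum genes p4hb.L (1269 ± 137 CPM) and canx.L (569 ± 49.4 CPM) fold secreted proteins. Traffic through the secretory pathway added 20 genes, 11 of them placed by hand, and 0.842% ± 0.0170. Here arf1.L, a GTPase of vesicle budding, had 1133 ± 124 CPM and the clathrin heavy chain cltc.S 738 ± 28.8 CPM.

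Metabolic genes numbered 38, of which 17 were placed by hand, and took 2.10% ± 0.228. The lactate dehydrogenase gene ldhb.S stood at 1997, 2471 and 1436 CPM and the glycolytic gapdh.S at 1598, 1858 and 1250 CPM. Pyruvate carboxylase, pc.1.L, which starts gluconeogenesis, had 1271 ± 167 CPM and pck2.L, a phosphoenolpyruvate carboxykinase, 978 ± 226 CPM. These 4 genes were each highest in pool 2 and lowest in pool 3. Nuclear genes of the respiratory chain, ATP synthase and their carriers gave 9 members and 0.587% ± 0.0983, of which slc25a5.L, the ADP/ATP carrier of the inner mitochondrial membrane, had 3313, 3050 and 2445 CPM. The ATP synthase subunit atp5f1b.S had 603 ± 145 CPM, the phosphate carrier slc25a3.L 451 ± 67.7 CPM and the subunit atp5f1a.L 412 ± 101 CPM. No gene of the mitochondrial genome was analysed here.

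Iron and metal binding genes were few but high. The ferritin gene ftmt.S stood at 3142, 3208 and 2150 CPM, the ferritin heavy chain fth1.1.S at 926, 1130 and 618 CPM, and the metallothionein mt4.L at 2302, 1583 and 1381 CPM. The iron exporter slc40a1.S had 420 ± 35.7 CPM and the reductase akr1c2.L 412 ± 68.5 CPM. The class of 7 genes held 0.687% ± 0.126. Of 179 genes that its patterns matched at 1 CPM or more, 6 reached the top 500, and 1 gene was added by hand.

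Extracellular matrix genes, with 22 members, held 1.37% ± 0.103. Collagens led: the fibrillar col1a1.S stood at 2136, 2019 and 2359 CPM, the microfibrillar col6a5.S at 2081, 2016 and 1949 CPM and the fibrillar col1a2.L at 1314, 1441 and 1256 CPM. They were followed by col1a1.L at 881 ± 136 CPM and the matrix glycoprotein sparc.S at 844 ± 140 CPM. Of the 22 genes, 15 were highest in pool 2 (221 of the whole top 500), and the matrix proteoglycan vcan.L had 277, 587 and 140 CPM. Summed muscle markers were also highest in pool 2, at 195, 400 and 36.8 CPM over 24 genes, and so were those of notochord and cartilage, at 220, 334 and 193 CPM over 14 genes; their part in the matrix values was not tested.

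The actin cytoskeleton added 16 genes and 1.49% ± 0.0904. The actins actb.S (2709, 2818 and 2225 CPM), actg1.S (1721, 2126 and 1702 CPM), actb.L (1694, 1872 and 1529 CPM) and actg1.L (1503, 1777 and 1306 CPM) were each highest in pool 2. The non-muscle myosin heavy chain myh9.L ran otherwise, at 1165, 1248 and 1637 CPM.

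Regulators were numerous and low. Signalling and epidermal transcription factor genes gave 34 members, 12 of them placed by hand, with 1.27% ± 0.0372. The class was led by the 14-3-3 genes ywhaq.S (689 ± 31.4 CPM) and ywhaz.L (625 ± 71.2 CPM), then the cyclin gene ccng1.L (577 ± 64.4 CPM). The histone and chromatin class had 16 members and 0.588% ± 0.0266, led by arid3b.L at 757 ± 21.2 CPM and the nucleosome-binding hmgn1.L at 616 ± 122 CPM. Smaller classes were the calcium-binding proteins (7 genes, 0.377% ± 0.0212, with the calpain capn2.L at 923 ± 14.4 CPM) and immune genes (4 genes, 0.224% ± 0.0281, with complement c3.L at 876, 944 and 607 CPM). Lipid carriers gave 4 genes, all placed by hand, and 0.215% ± 0.00956, with apoe.S at 977 ± 110 CPM. The ubiquitin class had 5 genes, 4 of them placed by hand, and 0.149% ± 0.00258. In the immediate-early and stress class, 3 genes held 0.0913% ± 0.00695, of which atf4.L, a factor of the integrated stress response, had 404 ± 27.5 CPM.

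Non-coding genes numbered 13 and held 2.03% ± 0.334, mostly through LOC121402969. The small nuclear RNA rn7sk, which holds the elongation factor P-TEFb in an inactive complex, stood at 3799, 3336 and 1745 CPM. LOC121401724 and LOC121401725, rRNA loci on chromosome 3L outside the dropped range, still had 1305 ± 496 and 503 ± 203 CPM, and rRNA genes outside that range took 0.215% of the counts in all. The copy dsp.S, annotated as a long non-coding RNA, had 602 ± 138 CPM.

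**Figure D3:**
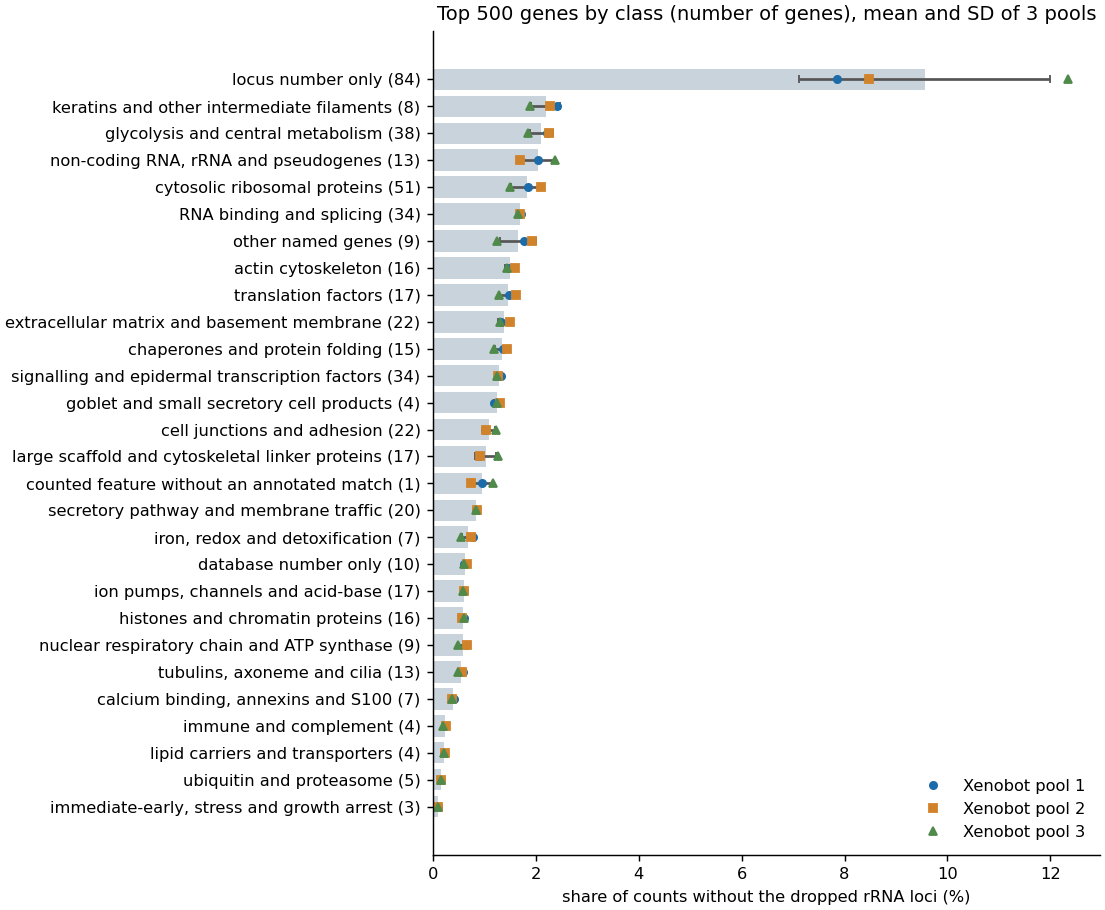
Share of the counts held by the top 500 genes of each class, with the number of genes in brackets; bars are means of 3 Xenobot pools, error bars are SDs and points are the pools. Loci known only by a number hold 9.56%, with 12.3% in pool 3, and the highest named class, the keratins, holds 2.19%.

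The methods give the Xenobots as derived from ectoderm, and markers of the larval epidermis took most of the marker reads. Of 41 general epidermal markers 9 were in the top 500, and the list summed to 14655 ± 228 CPM. Of the 41, 26 averaged at least 1 CPM, and 8, all keratins such as krt50.L and krt51.L, had 0 counts in every pool, which allows up to 0.301, 0.200 and 0.349 CPM in pools 1, 2 and 3. Goblet markers summed to 7372 ± 1090 CPM over 15 genes, of which itln1.L alone gave 6636 CPM. Of the 15, 11 averaged at least 1 CPM and 7 at least 10 CPM, while otogl.L had 0 counts in every pool. Multiciliated markers summed to 2467 ± 165 CPM over 24 genes, of which the tubulin genes tubb4b.L and tubb4b.S gave 852 and 242 CPM. Ionocyte markers summed to 1332 ± 158 CPM over 22 genes. Small secretory markers summed to 94.4 ± 8.15 CPM over 6 genes, with the monoamine transporter slc18a1.S at 59.2 ± 4.30 CPM. Master regulators, picked after their values were seen, were low but detected in every pool: tp63.L of basal cells had 118, 97.3 and 105 CPM, foxi1.L of ionocytes 85.1, 85.7 and 73.1 CPM, and foxj1.S of multiciliated cells 35.7, 39.9 and 38.3 CPM.

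None of the markers of 8 other tissues reached the top 500. Muscle markers were led by myh4.L (82.5, 160 and 8.62 CPM) and ckm.L (33.5, 72.6 and 11.6 CPM), lowest in pool 3 in both cases. Neuronal markers summed to 131 ± 2.44 CPM over 18 genes, of which syt1.L gave 111 ± 4.22 CPM, while elavl3.L had 0 counts, under the same limits. Liver markers summed to 74.8 ± 30.1 CPM over 21 genes, with apoc1.L at 70.9 ± 29.5 CPM and alb.S at 0 counts. Blood markers summed to 216 ± 14.9 CPM over 19 genes, but slc4a1.S and slc4a1.L, an anion exchanger that ionocytes also use, gave 170 and 44.3 CPM of it, and hbg1.L averaged 0.256 CPM. Endothelial and leukocyte markers (25.6 ± 14.6 CPM over 17 genes), lens and retina (26.7 ± 0.423 CPM over 27 genes) and pigment cells (12.9 ± 1.32 CPM over 9 genes) were lower still.

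Genes without a descriptive name held the largest single share. The top 500 included 93 genes with a locus number, which took 11.2% of the counts, of which 84 loci not annotated as non-coding took 9.56% ± 2.43 and the rest were non-coding. Another 10 genes carried only a database number, with XB5953580.L on chromosome 6L first at 2687, 3384 and 2616 CPM. No product names were used for these genes. Of the 84, the highest, LOC108699763 on chromosome 8S, had 4272, 4493 and 13741 CPM, and LOC108697796 on 7S had 3891, 6431 and 7141 CPM. LOC108718065 on 5S had 3685, 3588 and 9199 CPM, and LOC121398924 on 9_10S had 4767, 6671 and 4937 CPM. LOC108696889 and LOC108696890, both on 7L, had 4942, 5898 and 3970 CPM and 4465, 4977 and 3302 CPM. Of the 84 loci, 42 were highest in pool 3, against 151 of the whole top 500.

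Some of these loci lay next to each other. On chromosome 5L, from 108852536 to 109141661, 7 genes of the top 500 stood in a row with gaps of at most 100 kb: LOC121393927, LOC108705319, LOC121393928, LOC121393929, LOC121393133, LOC108716195 and LOC108716955. They summed to 11612, 11311 and 33399 CPM in pools 1, 2 and 3 and held 1.88% of all counts on average. Each of the 7 was highest in pool 3: LOC121393928 had 2541, 2527 and 7067 CPM, LOC108705319 had 2416, 2328 and 6990 CPM, and LOC121393927 had 1643, 1571 and 5620 CPM. Without pool 3 the sum averaged 11461 CPM, against 18774 CPM with it. The other 3 loci inside the stretch, LOC121393788, LOC108705316 and LOC121393930, lay below the top 500 at means of 140, 40.9 and 42.2 CPM, and were also highest in pool 3. The counts of the 10 loci were not whole in every pool, so RSEM had divided reads among loci, and their separate levels are uncertain.

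**Figure D4:**
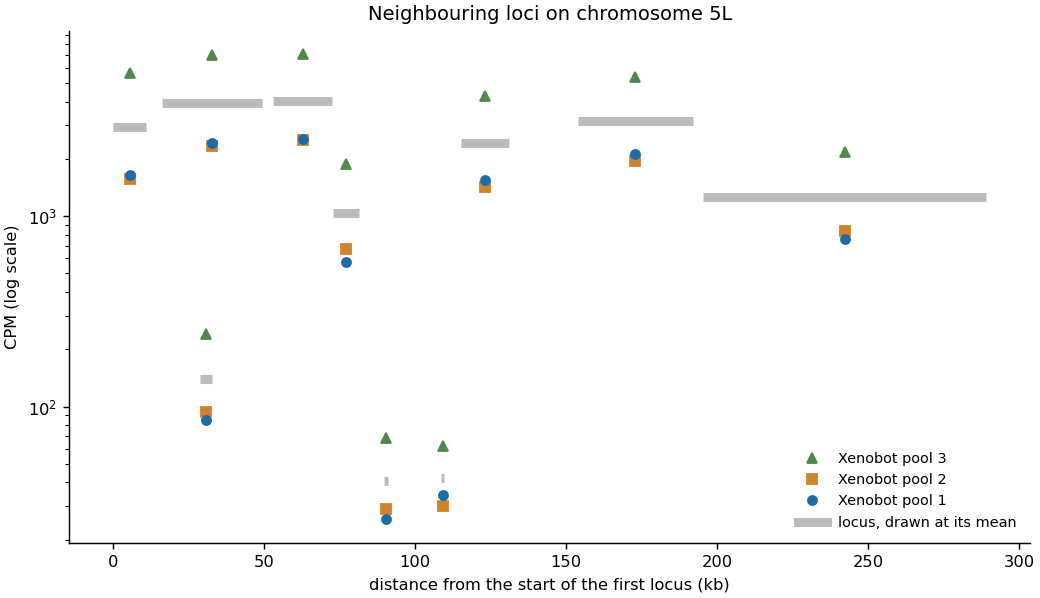
CPM (log scale) of the 10 loci of the stretch on chromosome 5L in each Xenobot pool, by distance from the start of the first locus; grey bars show each locus at its mean. Pool 3 lies above pools 1 and 2 at every locus, and pools 1 and 2 lie close together.

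Elsewhere the pools were alike for most of the 500 genes. The coefficient of variation (CV, the SD as a percent of the mean) had a median of 12.2% and was under 20% for 377 genes. The median absolute log2 ratio was 0.13 between pools 1 and 2, 0.22 between 1 and 3 and 0.29 between 2 and 3, and 5, 17 and 17 genes differed by more than 2-fold. A CV over 50% was found for 14 genes, of which 11 were highest in pool 3. The 10 largest CVs ran down from 78.7% for LOC121393927 and 72.0% for LOC108699763 to 59.1% for XB1001290.S (300, 335 and 808 CPM), and 7 of the genes named in the stretch on 5L were among them. Among these 10 genes, only vcan.L, at 68.4%, had its peak in pool 2. In all, 11 genes were more than 2-fold higher in pool 3 than in each other pool, 10 of them with locus numbers, and these took 2.00, 1.99 and 5.76% of the counts in pools 1, 2 and 3. Pool 3 also had the fewest counts and the largest share in the dropped loci, and pool 2 the most counts and the smallest share. The part of either in these values was not tested. No transcript lengths were used, so whether the differences of pool 3 between classes run with length was not tested either.

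The final question was how the reads divided between L and S copies. By symbol ending, 249 of the top 500 genes were L copies, 153 were S copies and 98 had no ending, so that L copies were 61.9% of those with one. By chromosome, 313 genes lay on L and 186 on S chromosomes (62.7% L). The share was lower over wider sets: 60.3% L by ending at ranks 501 to 5000, and 58.0% over the genes with at least 1 CPM (9660 L and 6989 S). By reads, L copies held 61.6% ± 0.393 of the CPM of named copies in the top 500 and 60.3% ± 0.0799 over all genes counted. The L share was above 50% in every pool and for every chromosome pair by number of genes. It ran between 54.9% on pair 2 (39 L and 32 S genes) and 72.4% on pair 5 (42 L and 16 S genes, among them the 7 neighbouring loci), with 70.4% on pair 3. Over all genes at 1 CPM or more, the same pairs had 54.6, 59.4 and 57.4% L. By reads, L led on each pair of the top 500 but 9_10, with 2.31% of all counts on L and 2.78% on S, while over all genes at 1 CPM or more that pair had 6.92% on L and 6.13% on S.

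The copies were then compared within pairs. Of 6422 pairs with at least 10 mean counts, the L copies held 54.9% ± 0.0511 of the summed CPM. In the 1829 of these with whole counts in both copies and every pool, they held 60.4%, so the level of this share depends on pairs whose reads were divided. The 235 pairs with a copy in the top 500 gave 54.0% ± 0.204, with a median L share of 58.8% per pair. In the other members the partner was absent from the table: 64 L genes and 31 S genes of the top 500 had no row for the other copy. The L copy was at least 2-fold above the S copy in every pool in 83 of the 235 pairs (35.3%, where 28.1% of all 6422 pairs were past this fold). The S copy was at least 2-fold above in 34 pairs (14.5%, against 13.4% of all pairs). Pairs entered the set by the level of their higher copy, which favours unequal pairs, so nothing is read from the first difference. Where both copies were in the top 500, in 72 pairs, L held 48.9% ± 0.639 of the summed CPM, which the pairs with most reads weigh on. The median L share per pair was 52.8%, with L higher in every pool in 39 pairs and S in 31. Of the 72, 5 pairs passed the fold towards L and 5 towards S. Only the L copy was in the top 500 in 113 pairs and only the S copy in 50.

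**Figure D5:**
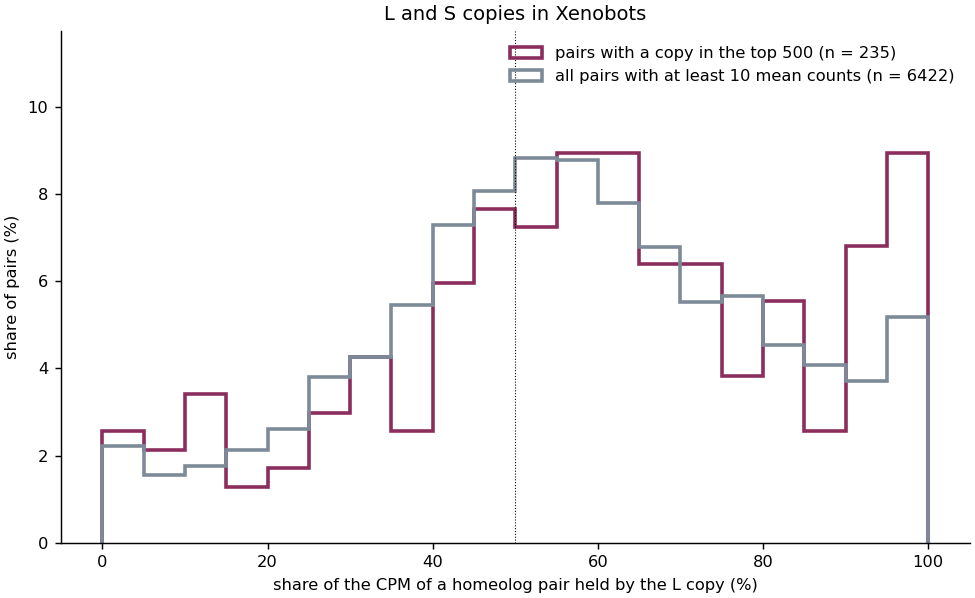
Distribution of the L copy's share of a pair's CPM (mean of 3 Xenobot pools, bins of 5 points), as a percent of the 235 pairs with a copy in the top 500 and of all 6422 pairs. Both sets spread over the whole range; 21 of the 235 pairs lie above 95% L and 6 below 5%.

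Among the 5 pairs with the most reads, all but eef1a1 leaned to S, krt7 only slightly. Of the summed CPM of krt7, 46.1% ± 1.54 was in the L copy, and the figure was 20.1% ± 1.87 for krt12.4, 31.0% for ahnak and 39.7% for actb. For eef1a1 it was 61.6%. The lean to S did not hold just below these pairs, where eef2.1 had 65.9%, actg1 45.2% and slc25a5 89.9% in L. Over the 5 keratin pairs the L share was 35.4% ± 1.67. Ion pumps and channels stood at the other side, with 79.2% ± 0.383 in L over 10 pairs. Of these, 8 were at least 2-fold towards L and 0 towards S. The shares were 35.3 and 14.5% of the 235 pairs and 28.1 and 13.4% of all 6422 pairs. Metabolic genes also had many pairs past the fold towards L, 14 of 22, with 3 towards S. By reads, however, their L copies held 57.3% ± 1.35, nearer to the 54.9% of all 6422 pairs than to the ion pumps. Ribosomal proteins, with 30 pairs at 55.0% ± 0.171, were near the value of all pairs.

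At the extremes, one copy held almost all reads. Towards L, rhoc.L, a small GTPase, had 454, 448 and 454 CPM and rhoc.S at most 0.241 CPM, which is under the 3 counts taken as the limit of detection. Likewise akr1c2.L had 429, 470 and 336 CPM and akr1c2.S at most 0.200 CPM. The L share was 99.8% for dsg2, 99.6% for lgals3 (galectin 3), 99.1% for ano1, a chloride channel, and 99.1% for oxct1, a ketone body enzyme. Towards S, col6a5.L had 0.616, 0.476 and 0.355 CPM against 2081, 2016 and 1949 CPM for col6a5.S. The lactate dehydrogenase copy ldhb.L had 15.3, 11.1 and 7.68 CPM against 1997, 2471 and 1436 CPM for ldhb.S. The L share was 1.06% for krt70, 2.33% for cdh1, 2.73% for rps19 and 2.83% for plcb4.

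The same copy was higher in every pool in 231 of the 235 pairs, L in 151 and S in 80. Over all 6422 pairs, which include many with few counts, L was higher in every pool in 3488, S in 2119, and the order differed in 815. In the other 4 of the 235 pairs the order of the copies differed between pools. Since homeologs share sequence, reads that fit both copies were divided by RSEM, so the shares of similar copies are estimates. Whole counts in every pool were found for 80 of the 500 genes (16.0%), against 40.5% of genes at 1 CPM or more. A single read divided with any other locus can end whole counts, so genes with more reads lose them more easily. Nothing is read from this difference.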

How the data were processed

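Total RNA of 3 Xenobot pools was sequenced by the authors after Ribo-Zero Plus depletion, as stranded single-end reads of 75 bases. The authors used fastp for trimming, 2-pass STAR alignment against NCBI assembly version 10.1, and RSEM for quantification; tool versions are not given in the sources used here. The deposited values are estimated counts per gene from the authors' RSEM step, not normalized, and RSEM divides a read among the loci it fits. A second deposited table, of log2 CPM with surrogate variables removed, and the embryo columns were not used.

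After the 11 loci were dropped, counts were divided by the remaining total of each pool (Python 3.11.15, pandas 2.3.3). No test was made: values are means ± SD over 3 pools. Biotypes and positions came from the RefSeq gene table for that version, which lists 499 of the 500 genes. It holds no transcript lengths or products, so no scale per length and no role for numbered loci was used, and no sequences are shown. Homeologs were paired by symbol, with a minimum of 10 mean counts per pair.

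Members and lists were chosen with earlier results of these data known. Classes were assigned by patterns on symbols, and 99 genes in 15 classes were placed by hand after their names were seen. The named genes were the 25 highest, up to 5 per class, ranks 499 to 502, the 6 highest and 6 lowest L shares, the 5 pairs with most reads, the 10 largest CVs, up to 15 numbered loci and up to 4 markers per list; others were picked after their values were seen. The pairing script was tested on simulated data. Alternatives were TMM scaling (edgeR 4.0.16), ranking by the median, keeping or dropping more rRNA, other minimums for pairs and each pool left out.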

Additional observations from a re-analysis of the deposited data

How the results depend on the processing

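The share of the top 500 moved to 58.2% where the rRNA loci were kept, since these loci then fill the first ranks, and was 35.6% without nemf.L, LOC121402969 and ccdc50.L_1 (chosen after seeing the data). Limiting the pairs to the 1829 with whole counts in both copies, also chosen afterwards, gave an L share of 60.4%. Of these 1829 pairs, 656 were towards L and 335 towards S, against 1803 and 862 of all 6422 pairs. Ranking by the median, TMM scaling and dropping all annotated rRNA gave 37.1, 37.8 and 37.7% and 249 to 253 L and 153 or 154 S copies. With each pool left out, the share was 37.1 to 38.4%, with 251 to 253 L copies and 149 to 153 S copies; pairs gave 54.9% in L each time, 1896 to 1940 pairs towards L and 927 to 961 towards S. Other minimums for pairs gave 1389 of 5142 and 1983 of 7621 pairs towards L, and 639 and 1005 of them towards S. Of 96 class shares under alternatives, 78 moved by less than the SD between pools, and 12 of the 18 others came from keeping the rRNA loci. For a fixed set of genes, leaving out a pool cannot move the mean by as much as that SD. Only a changed ranking could do so, and TMM scaling changed the pools little. Nothing about stability is therefore read from the count of 78. Scaling per length and a limit on sequence shared between copies were not run, as no transcript sequences were used, and dropping mitochondrial genes was not run, as 0 were counted. No paired analysis was possible because no result comes from a test and only 1 group was used.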
